A study of Mus musculus with 25 samples.

Results

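The effect of the SIRT1 liver knockout label, averaged over both viral vectors, was examined in mouse liver. All Western diet libraries titled SIRT1 LKO were set against all Western diet libraries titled WT, which took in 22 of the 25 libraries of the series. The 10 LKO-labelled libraries comprised 5 from mice that received an empty AAV8 vector (EV) and 5 from mice that received AAV8-NAMPT, and the 12 WT libraries comprised 6 of each. All 4 groups were C57B/6J livers at 20 weeks of age after 12 weeks of Western diet, and the study used male mice. LKO mice carried Sirt1 LoxP/LoxP alleles together with Albumin-Cre, a recombinase driven by the albumin promoter and so active in hepatocytes, and their WT littermates carried the floxed alleles without it. The NAMPT vector was driven by the thyroxine binding globulin promoter, which is also a hepatocyte promoter. The treatment text of the labels gives SIRT1 as the insert, but NAMPT stands in the titles and the series design, and group names here follow the titles. The 3 chow libraries were all WT with EV and stood outside the comparison.

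SIRT1 is a nuclear protein deacetylase that consumes NAD+, and NAMPT catalyses the rate-limiting step of the salvage pathway that regenerates NAD+. In hepatocytes SIRT1 is known for deacetylating transcriptional regulators of fatty acid oxidation, lipogenesis, gluconeogenesis and inflammation, among them PGC-1α, SREBP-1c, FOXO1 and the p65 subunit of NF-kB. Averaging the genotype difference over EV and NAMPT asks which liver transcripts followed the SIRT1 label regardless of the vector.

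The 22 libraries held between 20166175 and 32937326 counted reads. Hepatocyte markers dominated every liver, with a summed level of 59885 to 80227 CPM (read counts scaled to library size). In the limma fit, 4 libraries received a quality weight under 0.6, namely WT NAMPT replicates 1, 2 and 6 and LKO NAMPT replicate 3. WT NAMPT replicate 2 had the lowest weight, 0.368. The first principal component of the 1000 most variable genes held 45.1% of their variance, and NAMPT libraries stood at both of its ends. WT NAMPT replicates 1 to 4 and LKO NAMPT replicate 1 had scores between -43.0 and -18.2, below all other libraries, and WT NAMPT replicate 6 had the highest, 29.97. Log2 fold changes are LKO minus WT from that fit, with vector as a covariate and the standard error (SE) of the fit. Genes were called at a Benjamini-Hochberg adjusted p of 0.05 or less over all 13935 genes tested. Each library is taken as a separate mouse, and expression values are CPM scaled by TMM factors. A lower level in bulk liver cannot tell fewer expressing cells from less RNA per cell.

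Sirt1 itself was examined first. Its level in the 12 WT libraries ran from 7.62 through a median of 8.87 to 9.54 CPM, and in the 10 LKO-labelled libraries from 7.17 through 9.22 to 11.1 CPM. The genotypes overlapped, with 5 LKO-labelled libraries above every WT library and 2 below every one. The averaged log2 fold change was 0.06 ± 0.08 (SE), with an adjusted p of 0.831, and an exact two-sided permutation test within vectors over 213444 arrangements gave p = 0.385. Gene-level counts over the whole gene (Ensembl ENSMUSG00000020063, GRCm38 chromosome 10, 63319005 to 63381704) cannot separate reads of a deleted part from reads of the rest, so these counts do not check the label. The 10 libraries titled SIRT1 LKO are therefore called LKO-labelled below. No member of the sirtuin family was called or reached an unadjusted p under 0.05, and the 7 log2 fold changes lay between -0.07 and 0.12. Of 27 tested genes of NAD synthesis and use, 0 were called, with 1 higher and 1 lower at an unadjusted p under 0.05. Nampt, the salvage enzyme, ran from 38.4 to 77.9 CPM in WT and from 46.1 to 127 CPM in LKO-labelled libraries, with a log2 fold change of 0.24 ± 0.11 (SE) and an adjusted p of 0.534.

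**Figure D1:**
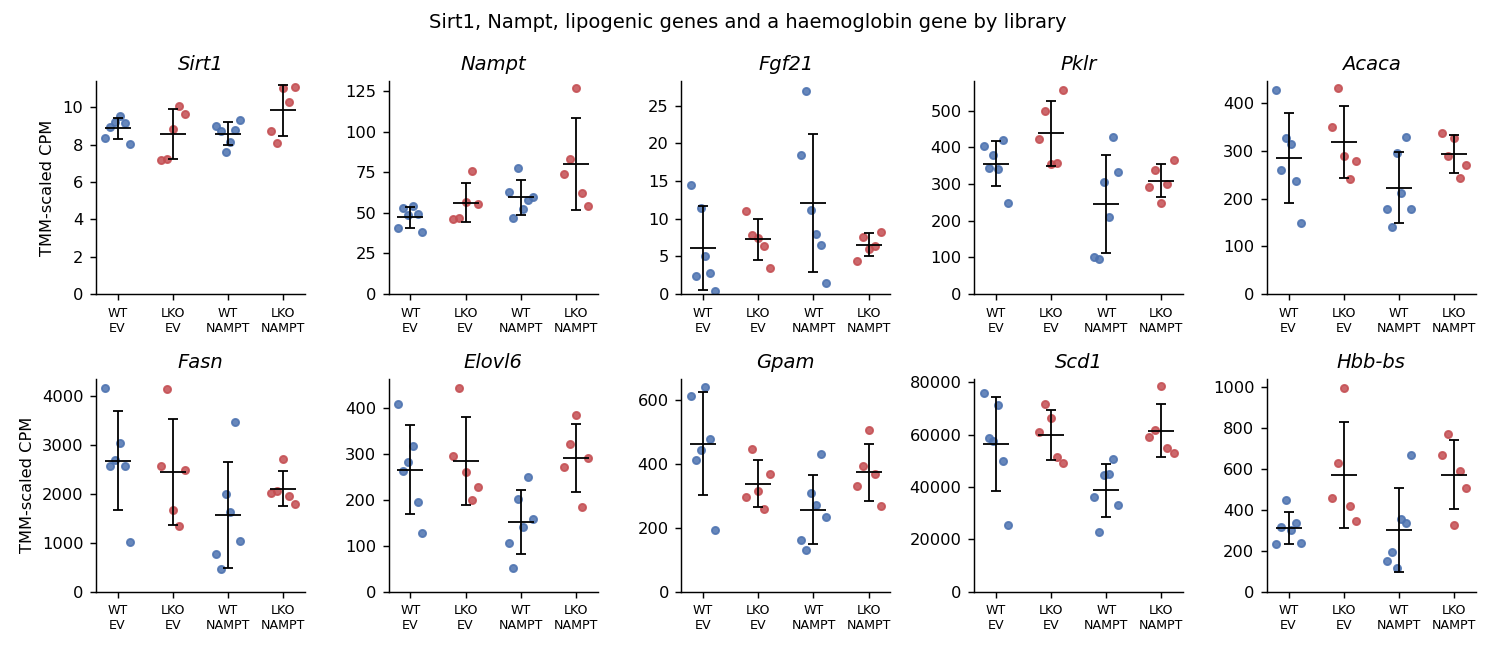
TMM-scaled CPM of Sirt1, Nampt, Fgf21, 6 lipogenic genes and the haemoglobin gene Hbb-bs in each library, by genotype and vector. Points are libraries (WT blue, LKO-labelled red), horizontal bars are group means and error bars are SD. Sirt1 overlapped between genotypes, and all 10 LKO-labelled libraries of Scd1 and of Hbb-bs lay above the WT median of the gene.

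Averaged over both vectors, 10 genes differed between genotypes, of which 4 were higher (Mmp7, Gypc, Slc22a26 and Gh) and 6 were lower (Sort1, Unc13b, Gstp1, Gstp2, Serpina1e and Ntrk2) in LKO-labelled livers. These were 0.0718% of the genes tested, 0.0287% higher and 0.0431% lower. At an unadjusted p under 0.05 there were 1266 genes, or 9.09%, with 627 higher (4.5%) and 639 lower (4.59%). All 10 called genes had the same sign in EV and in NAMPT libraries, and each reached an unadjusted p under 0.05 within both vectors, which choosing them on the averaged difference favours. Over all 13935 genes, 111 had an unadjusted p under 0.05 in both vectors with the same sign and 152 with opposite signs. For no gene, called or not, did the 10 LKO-labelled libraries lie wholly outside the range of the 12 WT libraries. The calls of Gypc, Mmp7 and Sort1 held in all 22 fits that left out 1 library, whereas the other 7 were each lost in some. Mmp7 was nevertheless not called by edgeR or without vector in the model. The number of calls fell to 3 without LKO EV replicate 3, LKO EV replicate 4 or WT EV replicate 7, which left Gypc, Mmp7 and Sort1, to 4 without LKO NAMPT replicate 2, 3 or 5 or WT NAMPT replicate 5, to 5 without WT NAMPT replicate 4 and to 6 without WT EV replicate 8. Without the 4 libraries of low quality weight there were 0 calls by limma and 984 genes at an unadjusted p under 0.05.

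**Figure D2:**
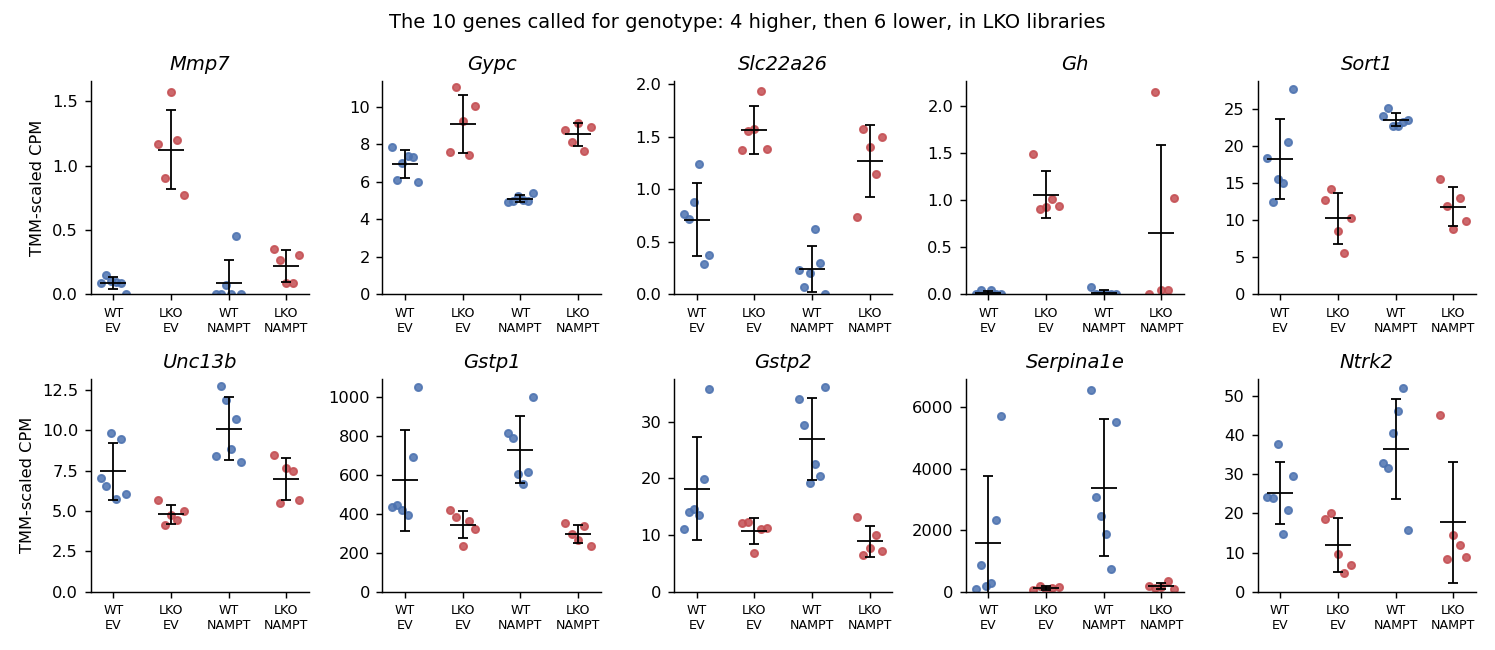
TMM-scaled CPM of the 10 called genes in each library, by genotype and vector. Points are libraries (WT blue, LKO-labelled red), horizontal bars are group means and error bars are SD. Mmp7 and Gh stayed at or below 2.14 CPM in every library, and Gh was at or near 0 in 3 of the 5 LKO NAMPT libraries.

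Among the rises, Gypc (ENSMUSG00000090523) encodes glycophorin C, a membrane protein that anchors the cytoskeleton of red blood cells and is also made elsewhere at low levels. Gypc ran from 4.90 through 5.68 to 7.85 CPM in WT and from 7.43 through 8.85 to 11.1 CPM in LKO-labelled libraries. All 10 LKO-labelled libraries lay above the WT median, and 7 of them above every WT library. The log2 fold change was 0.55 ± 0.08 (SE, n = 10 and 12), with a limma adjusted p of 0.00807. It was 0.43 in EV and 0.72 in NAMPT libraries.

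Slc22a26 (ENSMUSG00000053303, chromosome 19, 7781041 to 7802667) belongs to the organic anion transporters of the solute carrier 22 family. Its level ran from 0 through 0.334 to 1.24 CPM in WT and from 0.734 through 1.45 to 1.94 CPM in LKO-labelled libraries. The 8 highest LKO-labelled libraries lay above all WT libraries, and within each vector the genotypes did not overlap. Such separation was met by 0.574% of all genes in EV and by 1.39% in NAMPT libraries. The log2 fold change was 1.61 ± 0.29 (SE), with a limma adjusted p of 0.0276, and it rested on 0 to 27 reads in WT and 21 to 53 in LKO-labelled libraries. The call was lost in 8 of the 22 fits without 1 library.

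Mmp7 (ENSMUSG00000018623, chromosome 9, 7692090 to 7699585) encodes matrilysin, a secreted matrix protease made mainly by epithelial cells. It had 0 to 12 reads per WT library, with 5 of 12 at 0, and 2 to 53 reads per LKO-labelled library. The 5 LKO EV libraries, with 18 to 53 reads, lay above every WT library, while the 5 LKO NAMPT libraries, with 2 to 10 reads, overlapped WT NAMPT replicate 5, which had 12. Summed over libraries and scaled to their totals, the ratio of LKO-labelled to WT reads was 7.71 (exact 95% interval 5.09 to 12.1, counting error only). The fitted log2 fold change was 3.03 ± 0.45 (SE), with a limma adjusted p of 0.00807. Mmp7 passed the filter of 1 CPM only through LKO EV libraries, a selection that favours its call. The highest WT library held 0.448 CPM and the highest LKO NAMPT library 0.349 CPM. Without a filter on low counts the log2 fold change was 2.88, with a limma adjusted p of 0.0227. With edgeR it was 2.64, with an adjusted p of 0.0784, without vector in the model 2.76, with an adjusted p of 0.225, and with a replicate block 1.54, with an adjusted p of 0.265.

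Gh (ENSMUSG00000020713, chromosome 11, 106300271 to 106301865) encodes growth hormone, whose usual source is the pituitary. WT libraries held 0 to 2 Gh reads each, with 9 of 12 at 0. The 5 LKO EV libraries held 37, 18, 31, 26 and 23 reads. The 5 LKO NAMPT libraries held 0, 65, 1, 1 and 30 reads, so that replicates 2 and 5 lay in the range of LKO EV or above it, and replicates 1, 3 and 4 in the range of WT. The 3 chow libraries held 0. The ratio of summed reads was 64.2 (exact 95% interval 24.8 to 238, counting error only), and the fitted log2 fold change was 4.31 ± 0.80 (SE) with a limma adjusted p of 0.0313. Gh passed the filter of 1 CPM only through LKO-labelled libraries, a selection that favours its call. The highest WT library held 0.0765 CPM and the highest LKO-labelled library 2.14 CPM. The call was kept without a filter on low counts. The call was lost in 11 of the 20 fits without 1 library in which Gh was tested, without quality weights and without vector in the model, and the fitted value ran from 3.97 to 5.85 over all alternatives. Reads counted at Gh cannot be told apart from reads of another transcribed copy of the same sequence.

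Among the falls, Sort1 (ENSMUSG00000068747, chromosome 3, 108284091 to 108361511) encodes sortilin, a sorting receptor that takes part in hepatic lipoprotein secretion and uptake. Sort1 ran from 12.4 through 22.7 to 27.6 CPM in WT and from 5.50 through 11.1 to 15.5 CPM in LKO-labelled libraries. All 10 LKO-labelled libraries lay below the WT median and 6 below every WT library, and the NAMPT libraries did not overlap. Sort1 shares 329 bases with Gm12523, and Mmp7 shares 123 with AV064505. By the study's methods only uniquely aligned, unambiguous reads were counted. Reads in these bases may be left out, because use of the strand in counting is not stated. The log2 fold change of Sort1 was -0.88 ± 0.14 (SE), a level 1.84-fold lower, with a limma adjusted p of 0.00902. It was -0.75 in EV and -0.99 in NAMPT libraries.

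Unc13b (ENSMUSG00000028456, chromosome 4, 43058953 to 43264871), a protein of the family that primes vesicles for fusion, ran from 5.73 through 8.64 to 12.8 CPM in WT and from 4.12 through 5.59 to 8.49 CPM in LKO-labelled libraries. A total of 7 LKO-labelled libraries lay below every WT library. Its log2 fold change was -0.61 ± 0.11 (SE), with a limma adjusted p of 0.0276. The separation was complete within EV, whereas LKO NAMPT replicate 1 overlapped WT NAMPT. The call was lost in 7 of the 22 fits that left out 1 library, and with edgeR, without quality weights, without the filter on low counts and without vector in the model.

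Ntrk2 (ENSMUSG00000055254, chromosome 13, 58806596 to 59133970), the receptor of brain-derived neurotrophic factor, ran from 14.8 through 30.7 to 51.9 CPM in WT and from 4.84 through 10.8 to 45.1 CPM in LKO-labelled libraries. LKO NAMPT replicate 1, at 45.1 CPM, was the only LKO-labelled library above the WT median. The log2 fold change was -1.39 ± 0.27 (SE), with a limma adjusted p of 0.0405. This was the least stable call, kept in 6 of the 22 fits that left out 1 library and in 5 of the 13 other alternatives. It was lost with edgeR, with DESeq2, without quality weights, with either other filter setting and without vector in the model.

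Serpina1e (ENSMUSG00000072849, chromosome 12, 103946931 to 103958975) is a member of the mouse alpha-1-antitrypsin family with higher expression in male liver. It spanned 90.7 through 2103 to 6556 CPM in WT and 46.6 through 146 to 356 CPM in LKO-labelled libraries. The WT spread was wide in EV, where replicates 1, 4 and 6 held 90.7, 174 and 297 CPM, inside the LKO-labelled range, and replicate 8 held 5713 CPM. All 6 WT NAMPT libraries lay above all 5 LKO NAMPT libraries. The log2 fold change was -2.83 ± 0.53 (SE), with a limma adjusted p of 0.0328, and the call was lost in 13 of the 22 fits without 1 library. It was also lost without the filter on low counts and without vector in the model. The fitted value ran from -3.95 to -1.96 over the alternatives other than leaving out 1 library. By the study's methods, reads that align to several of the near-identical Serpina1 copies were not counted. The level of this copy thus rests on the remaining reads and is uncertain.

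Gstp1 and Gstp2 are neighbouring pi-class glutathione S-transferases, enzymes that conjugate electrophiles to glutathione and are more abundant in male liver. Gstp1 (ENSMUSG00000060803, chromosome 19, 4035407 to 4037921) ran from 392 through 608 to 1051 CPM in WT and from 234 through 329 to 417 CPM in LKO-labelled libraries. Of the 10 LKO-labelled libraries, 9 lay below every WT library. The log2 fold change was -0.83 ± 0.15 (SE), with a limma adjusted p of 0.0313. Gstp2 (ENSMUSG00000038155, chromosome 19, 4040285 to 4042236) ran from 11.1 through 20.2 to 36.1 CPM in WT and from 6.48 through 10.5 to 13.1 CPM in LKO-labelled libraries. Its log2 fold change was -1.02 ± 0.19 (SE), with a limma adjusted p of 0.0328. Both were lower within each vector, by 0.61 and 0.67 log2 units in EV and by 1.12 and 1.54 log2 units in NAMPT libraries, without overlap in the latter. The paralogues are similar in sequence, and reads that align equally to both were not counted by the study's methods, so they are not taken as independent. Without 1 library the call of Gstp1 was lost in 8 and that of Gstp2 in 11 of the 22 fits.

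The promoter windows of this pair are shown because both genes fell together. Each window covers 250 bases before to 50 bases after the annotated start (RefSeq, GRCm38.p6, minus strand), at chr19:4037863-4038162 for Gstp1 and chr19:4042172-4042471 for Gstp2. Capitals mark every match, on either strand, to TGANNNNGC, the core letters of the antioxidant response element that NRF2 is known to bind.
Gstp1: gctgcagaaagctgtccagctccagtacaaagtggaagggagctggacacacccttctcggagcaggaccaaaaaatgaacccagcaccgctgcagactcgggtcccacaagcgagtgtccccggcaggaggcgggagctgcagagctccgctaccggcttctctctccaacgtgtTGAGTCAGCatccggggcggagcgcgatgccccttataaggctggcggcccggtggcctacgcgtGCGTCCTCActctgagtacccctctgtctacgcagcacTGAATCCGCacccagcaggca
Gstp2: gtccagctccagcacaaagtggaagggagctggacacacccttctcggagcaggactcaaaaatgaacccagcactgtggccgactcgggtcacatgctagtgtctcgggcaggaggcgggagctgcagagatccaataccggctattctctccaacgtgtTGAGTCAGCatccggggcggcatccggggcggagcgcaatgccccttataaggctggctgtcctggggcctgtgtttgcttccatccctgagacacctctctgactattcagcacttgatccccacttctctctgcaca
The windows were identical at 245 of 317 aligned positions (77.3%) and shared a run of 43 identical bases. The first match began 74 bases before the start in Gstp1 and 89 bases before it in Gstp2. Of all 32851 windows of this length, 41.3% held at least 1 match. In the list of 29 NRF2 antioxidant genes, Gstp1 and Gstp2 were the 2 called, against 0.0431% called lower of all genes, and the median log2 fold change of the list was 0.04, against -0.00067 over all genes.

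Of the 13 uncalled genes of smallest p that the naming rule took, 5 are given by their values, chosen after the values were seen. Serpine2, a secreted inhibitor of serine proteases, had a log2 fold change of -2.18 ± 0.43 (SE) with a limma adjusted p of 0.0515, and 8 of 10 LKO-labelled libraries lay below every WT library. Nat8, an N-acetyltransferase of mercapturic acid formation, had -0.97 ± 0.20 (SE) with a limma adjusted p of 0.0698. Fmo2, a flavin monooxygenase, had 0.98 ± 0.21 (SE) with a limma adjusted p of 0.087, and 7 of 10 LKO-labelled libraries lay above every WT library. The values of Gstt3, a theta-class glutathione transferase, were 0.82 ± 0.17, and those of Ugt1a5, a glucuronosyltransferase that shares exons with its Ugt1a neighbours, were 1.06 ± 0.24 (log2 fold change ± SE). Of the 20 genes taken by the naming rule for the averaged difference, 7 were called and 13 were not.

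Within the vectors, the number of calls depended on the vector, the test and single libraries. In EV libraries 2 genes were called (0.0144%), Mmp7 higher and Nat8 lower, and 891 had an unadjusted p under 0.05 (6.39%, with 3.52% higher and 2.87% lower). Without 1 library the EV count was 0 (WT EV replicate 2 or 6), 1 (WT EV replicate 7 or 8, or LKO EV replicate 4) or 5 (WT EV replicate 1), and otherwise 2 or 3. Nat8 differed by -1.44 log2 units in EV, with a limma adjusted p of 0.0153, and by -0.28 in NAMPT libraries. In NAMPT libraries 1031 genes were called (7.4%), 546 higher (3.92%) and 485 lower (3.48%). The NAMPT count was 13 with edgeR and 15 without quality weights. It was 302 higher and 621 lower with upper-quartile scaling, and 205 higher and 552 lower with library size alone. Leaving out LKO NAMPT replicate 2 left 0 NAMPT calls and 2243 genes at an unadjusted p under 0.05, and leaving out LKO NAMPT replicate 5 left 1. The count also moved by over 1.5 times without each other NAMPT library. It was 63, 97, 512 and 533 without WT NAMPT replicates 3, 2, 4 and 1, and 134 without LKO NAMPT replicate 3. It was 1735 and 2169 without LKO NAMPT replicates 4 and 1, and 1888 and 2168 without WT NAMPT replicates 5 and 6. Of the 1031 genes, 633 had the opposite sign in EV libraries. Across all genes the EV and NAMPT log2 fold changes, which share no library, had a Pearson r of -0.03 (13935 genes, given as a description), and 44.5% of genes had the same sign.

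**Figure D3:**
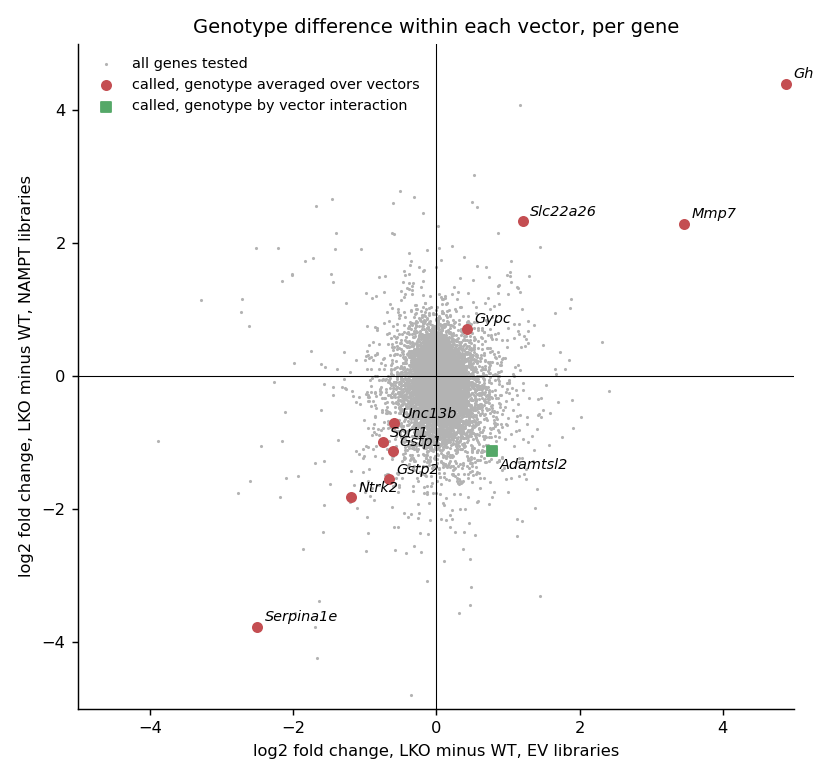
Log2 fold change, LKO minus WT, of each of the 13935 genes within EV libraries (x axis) and within NAMPT libraries (y axis). Red points are the 10 genes called for the averaged difference, all in the quadrants of equal sign. The green square is Adamtsl2, at 0.78 in EV and -1.12 in NAMPT libraries.

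The interaction of genotype with vector was called for 1 gene of 13935 (0.00718%), Adamtsl2, a secreted glycoprotein of the extracellular matrix that binds fibrillin and the latent TGF-beta binding protein. Its level in the 6 WT NAMPT libraries averaged 6.04 ± 1.74 CPM and in the 5 LKO NAMPT libraries 3.49 ± 1.29 CPM (SD). The 5 LKO EV libraries averaged 6.58 ± 0.762 CPM (SD), and the highest of the 6 WT EV libraries held 4.39 CPM, below every LKO EV library, of which the lowest held 5.72. The interaction was -1.90 log2 units with a limma adjusted p of 0.000435. It was not called by edgeR (adjusted p = 0.218), without quality weights (adjusted p = 0.144) or with 2 surrogate variables (adjusted p = 0.0592). At an unadjusted p under 0.05 the interaction counted 2951 genes (21.2%), 11.1% in the higher and 10.1% in the lower direction. The number of interaction calls rose to 41 without WT EV replicate 8, 306 without WT NAMPT replicate 5, 528 without WT NAMPT replicate 6 and 606 without LKO NAMPT replicate 1, and was 1 to 4 in the other fits that left out 1 library. Medians within each vector are given below for the lists where they lay farthest apart and for the sex-biased and lipogenic lists, and the plot of list members shows them for all 19.

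The 19 pathway lists held a called member in 4 cases. For the averaged difference, in the other 15 lists 0 genes were called by limma, edgeR called 0, and DESeq2 called 2 genes of fatty acid oxidation and 1 bile acid gene. The numbers at an unadjusted p under 0.05 are given with each list. Male-biased liver genes, most of them controlled by the pulsatile pattern of growth hormone in males, had the lowest median of these 19 lists, -0.43 against -0.00067 over all genes. Of 29 tested members, 3 fell (Serpina1e, Gstp1 and Gstp2) and 0 rose, against 0.0431% called lower and 0.0287% called higher of all genes. At an unadjusted p under 0.05, 10 members were lower and 0 higher, against 4.59% and 4.5% of all genes. Among these were C6, a complement component, at -0.68 ± 0.16, Selenbp2, a selenium-binding protein, at -1.55 ± 0.46, Csad, the taurine-synthesis enzyme, at -0.61 ± 0.21, and the urinary pheromone carrier Mup20 at -0.46 ± 0.14 (log2 fold change ± SE). The list median was -0.52 in EV but 0.25 in NAMPT libraries, with 26 members negative in EV, 11 in NAMPT and 10 in both. The members called within NAMPT libraries were nevertheless 4 lower and 0 higher, against 3.48% and 3.92% of all genes. The NAMPT calls depended on the test and numbered 0 without LKO NAMPT replicate 2. The Mup genes showed the split of signs between vectors. Of 7 tested, 6 were negative in EV and 6 were positive in NAMPT libraries, with Mup7 at -2.21 and 1.93. Mup and Cyp4a copies share near-identical sequence and their separate values are uncertain.

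Female-biased liver genes leaned the other way, with a median of 0.32. Of 25 tested, 1 fell by limma, Ntrk2, and 0 rose, against 0.0431% called lower and 0.0287% called higher of all genes. By contrast edgeR called 1 and DESeq2 called 2 members higher, and neither called Ntrk2. At an unadjusted p under 0.05, 11 were higher and 3 lower, against 4.5% and 4.59% of all genes. The steroid hydroxylases Cyp2b9 and Cyp17a1 stood at 2.07 ± 0.711 and 0.996 ± 0.336, the peroxisomal oxidase Hao2 at 1.5 ± 0.46 and the thioesterase Acot3 at 1.31 ± 0.46 (log2 fold change ± SE), none of them called. Cyp3a44, which is likewise more abundant in females, stood at -0.76 ± 0.21. The list median was 0.28 in EV and 0.26 in NAMPT libraries, and 13 members were positive and 7 negative in both. Of 19 tested genes of the growth hormone and IGF axis 0 were called and 1 was at an unadjusted p under 0.05. Prlr, the prolactin receptor, stood at 0.52 ± 0.15 and Igf1, the circulating effector of growth hormone, at -0.01 ± 0.12 (log2 fold change ± SE). Gh itself, described above, was not a member of that list.

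**Figure D4:**
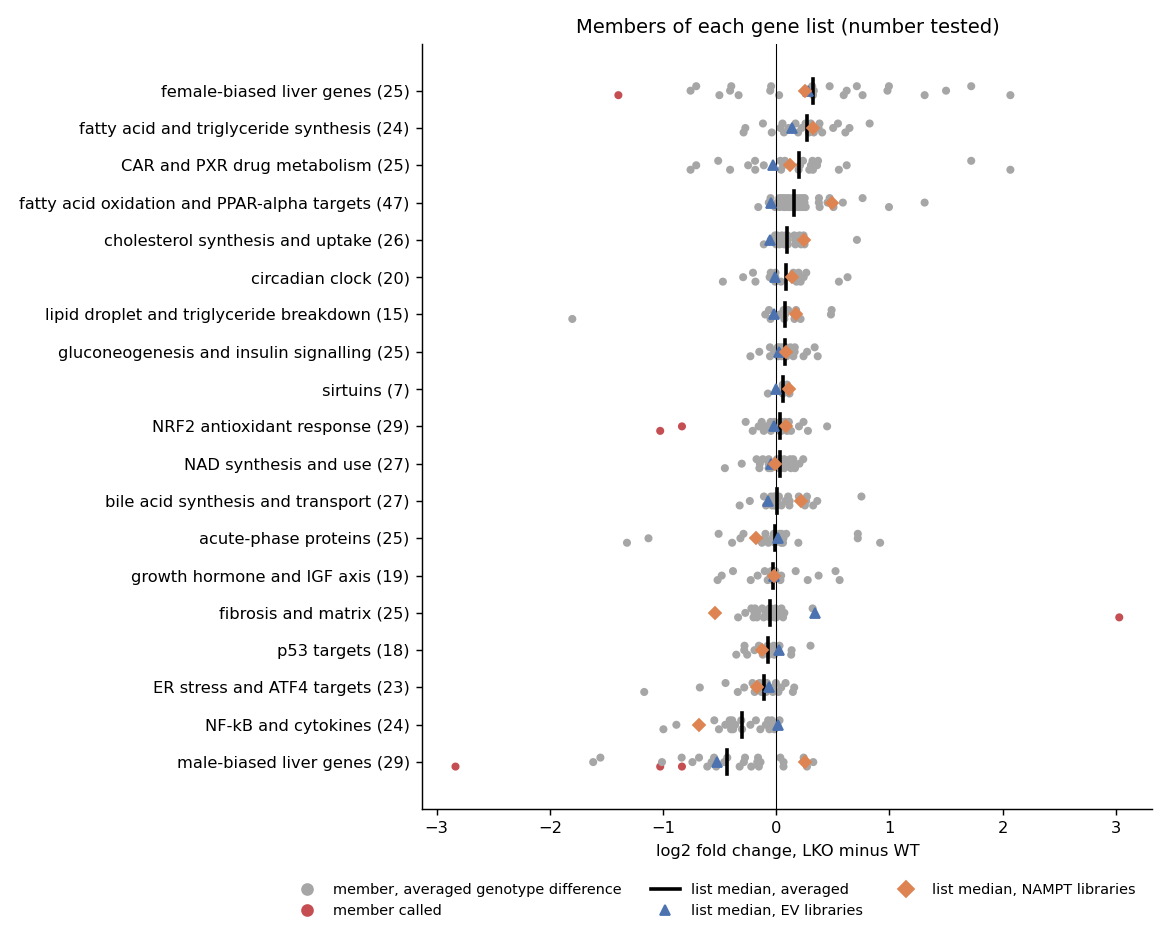
Log2 fold change, LKO minus WT, of every tested member of each of 19 gene lists (grey points, called members red), with the list median of the averaged difference (black bar), of EV libraries (blue triangle) and of NAMPT libraries (orange diamond). The averaged medians ran from -0.43 for male-biased to 0.32 for female-biased genes, and the EV and NAMPT medians were farthest apart for fibrosis, NF-kB, male-biased and fatty acid oxidation genes.

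Fatty acid oxidation and PPAR-alpha target genes tended to small positive differences without a call. Of 47 tested members 0 were called, 43 had a positive log2 fold change (49.8% of all genes did), and 14 were higher and 0 lower at an unadjusted p under 0.05. The median was 0.16. Acot4, a peroxisomal thioesterase, ran from 11.6 through 22.2 to 26.6 CPM in WT and from 23.2 through 31.9 to 47.8 CPM in LKO-labelled libraries, a log2 fold change of 0.51 ± 0.14 (SE) with a limma adjusted p of 0.238. Cpt1a, the carnitine transferase that admits fatty acids to mitochondria, differed by 0.25 ± 0.08 (SE) with a limma adjusted p of 0.371. The difference between vectors was not tested for the list, and no member had a called interaction. Its values were a median of -0.05 and 16 positive members in EV, and a median of 0.49, 43 positive members and 22 called higher in NAMPT libraries, where 3.92% of all genes were called higher. These 22 are among the 1031 NAMPT calls, which numbered 0 without LKO NAMPT replicate 2 and 13 with edgeR. Cyp4a10, a fatty acid omega-hydroxylase and classical PPAR-alpha target, stood at -0.19 in EV and at 2.45 in NAMPT libraries.

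Genes of fatty acid and triglyceride synthesis were positive in 20 of 24 cases, with 0 called, 4 higher at an unadjusted p under 0.05 and a median of 0.27. The medians were 0.14 in EV and 0.32 in NAMPT libraries. Scd1, the stearoyl-CoA desaturase, ran from 22964 through 47396 to 75772 CPM in WT and from 49039 through 60158 to 78544 CPM in LKO-labelled libraries. All 10 LKO-labelled libraries of Scd1 lay above the WT median, with a log2 fold change of 0.30 ± 0.15 (SE) and a limma adjusted p of 0.559. The other lipogenic genes of the study's panel gave 0.41 ± 0.21 for Elovl6, a fatty acid elongase, 0.31 ± 0.17 for the pyruvate kinase Pklr, 0.22 ± 0.15 for Acaca, the acetyl-CoA carboxylase, 0.06 ± 0.25 for Fasn, the fatty acid synthase, and -0.04 ± 0.19 for Gpam, the first acyltransferase of glycerolipid synthesis (log2 fold change ± SE). Lpin1, a phosphatidate phosphatase, stood at 0.65 ± 0.24 and Fads1, a fatty acid desaturase, at 0.33 ± 0.11. Fgf21, a fasting hormone of the liver, ran from 0.370 through 7.27 to 26.9 CPM in WT and from 3.51 through 6.93 to 11 CPM in LKO-labelled libraries. The WT range of Fgf21 enclosed all LKO-labelled libraries, and its log2 fold change was 0.16 ± 0.42 (SE). The directions of Fasn, Gpam, Fgf21 and Acaca depended on the processing.

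None of 26 cholesterol genes, 27 bile acid genes, 25 genes of CAR and PXR drug metabolism or 15 genes of lipid droplets and lipolysis was called by limma for the averaged difference. Within NAMPT libraries 1, 3, 4 and 2 of them were called higher, where 3.92% of all genes were, and these calls too are among those that numbered 0 without LKO NAMPT replicate 2 and 13 with edgeR. For the averaged difference at an unadjusted p under 0.05 there were 2, 2, 6 and 0 of them. Sqle, the squalene epoxidase, stood at 0.71 ± 0.27 and Slco1a4, a hepatic anion and bile acid transporter, at 0.75 ± 0.19 (log2 fold change ± SE). Cyp3a11, the main drug-metabolising Cyp3a enzyme of mouse liver, ran from 1282 through 1858 to 3055 CPM in WT and from 925 through 1286 to 3462 CPM in LKO-labelled libraries, with -0.51 ± 0.15 (SE). Its genotypes overlapped, with 5 LKO-labelled libraries below every WT library and 1 above. Of 25 genes of gluconeogenesis and insulin signalling 0 were called and 4 were higher at an unadjusted p under 0.05, and Foxo1, the insulin-restrained transcription factor, stood at 0.24 ± 0.09 (SE). Of 20 clock genes and 18 p53 targets 0 were called, with 1 of each at an unadjusted p under 0.05. Within NAMPT libraries 3 genes of gluconeogenesis and insulin signalling were called higher and 1 lower, 2 clock genes higher and 1 lower, and 1 p53 target lower. Of all genes, 3.92% were called higher and 3.48% lower there.

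NF-kB and cytokine genes lay mostly below 0. Of 24 tested NF-kB and cytokine genes 0 were called, 22 were negative, 4 of them at an unadjusted p under 0.05, and the median was -0.31. Tnf, a macrophage cytokine, stood at -0.996 ± 0.36, Il1b at -0.55 ± 0.25 and Rela, which encodes p65, at -0.18 ± 0.07 (log2 fold change ± SE). The median was 0.02 in EV and -0.68 in NAMPT libraries, where all 24 were negative and 7 were called lower, against 3.48% of all genes, with the same dependence of the NAMPT calls on LKO NAMPT replicate 2 and on the test. Of 25 acute-phase genes 0 were called, with 1 higher and 3 lower at an unadjusted p under 0.05 and a median of -0.01. Within NAMPT libraries 1 was called higher and 3 lower, with Saa3 at -1.87 (limma adjusted p = 0.0374) and Itih3 at -0.61 (limma adjusted p = 0.026) among the latter. Saa3, an inducible serum amyloid, ran from 1.57 through 10.8 to 43.0 CPM in WT and from 1.87 through 5.72 to 9.05 CPM in LKO-labelled libraries, so that all 10 LKO-labelled libraries lay below the WT median. Itih3, an inter-alpha-trypsin inhibitor heavy chain, stood at -0.39 ± 0.10 (SE) with a limma adjusted p of 0.226. Of 23 genes of ER stress and ATF4 signalling 0 were called and 1 was lower at an unadjusted p under 0.05.

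Of 25 fibrosis and matrix genes 1 rose, Mmp7, and 0 fell, against 0.0287% and 0.0431% of all genes. Mmp7 passed the filter only through LKO EV libraries, so its call is not read as a result about the list. Within NAMPT libraries 3 were called lower and 0 higher, against 3.48% and 3.92% of all genes. The median was -0.06 on average, 0.35 in EV and -0.54 in NAMPT libraries, with 24 members positive in EV and 23 negative in NAMPT. Col1a1, the main fibrillar collagen chain, stood at 0.55 in EV and -1.47 in NAMPT libraries, with an average of -0.34 ± 0.42 (SE).

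Markers of cell types were also examined. Across 13 marker lists 0 genes were called for the averaged difference by limma, the one test run on them as lists. Within NAMPT libraries limma called 2 hepatocyte and 1 erythroid marker higher, and 1 marker lower in each of the Kupffer cell, recruited macrophage, neutrophil, stellate and cholangiocyte lists, where 3.92% of all genes were called higher and 3.48% lower. Without LKO NAMPT replicate 2 the NAMPT calls numbered 0. In the erythroid list 6 of 7 genes were higher at an unadjusted p under 0.05, against 4.5% of all genes. The exception was Alas2 at -0.05 ± 0.11 (log2 fold change ± SE). The globin pairs Hba-a1 and Hba-a2, and Hbb-bs and Hbb-bt, are near-identical and not independent members. The summed erythroid level ran from 400 through 719 to 1384 CPM in WT and from 591 through 1176 to 2146 CPM in LKO-labelled libraries. Hbb-bs, a beta-globin chain, ran from 116 through 309 to 670 CPM in WT and from 324 through 551 to 997 CPM in LKO-labelled libraries, with a log2 fold change of 1.01 ± 0.23 (SE) and a limma adjusted p of 0.147. All 10 LKO-labelled libraries lay above the WT median of Hbb-bs, as they did for Gypc, and the part of blood content in the Gypc result was not tested.

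Recruited macrophage markers summed to 57.3 to 748 CPM in WT and 66.0 to 342 CPM in LKO-labelled libraries. All 10 of these markers were negative, with a median of -0.31 on average, 0.27 in EV and -1.04 in NAMPT libraries. Some WT NAMPT libraries reached the highest sums of recruited macrophage, neutrophil and stellate markers. Neutrophil markers stood at 3.87 to 36.8 CPM in WT NAMPT and 2.74 to 9.45 CPM in WT EV. WT NAMPT replicates 1 to 4 held 523, 748, 414 and 274 CPM of recruited macrophage markers. Replicate 6 held 57.3 CPM, the lowest of all libraries, and LKO NAMPT replicate 1 held 342. Of these, WT NAMPT replicates 1, 2 and 6 had low quality weights. The part of these marker sums in the values of NF-kB, acute-phase and matrix genes in NAMPT libraries was not tested. Of 8 tested cholangiocyte markers 4 were positive and 4 negative, with a median of 0.01. Sox9 stood at -1.10 ± 0.25, Krt23 at -0.78 ± 0.25, Epcam at 0.42 ± 0.26 and Spp1 at 0.40 ± 0.25 (log2 fold change ± SE). The list summed to 60.7 to 143 CPM in WT and 49.3 to 114 CPM in LKO-labelled libraries.

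**Figure D5:**
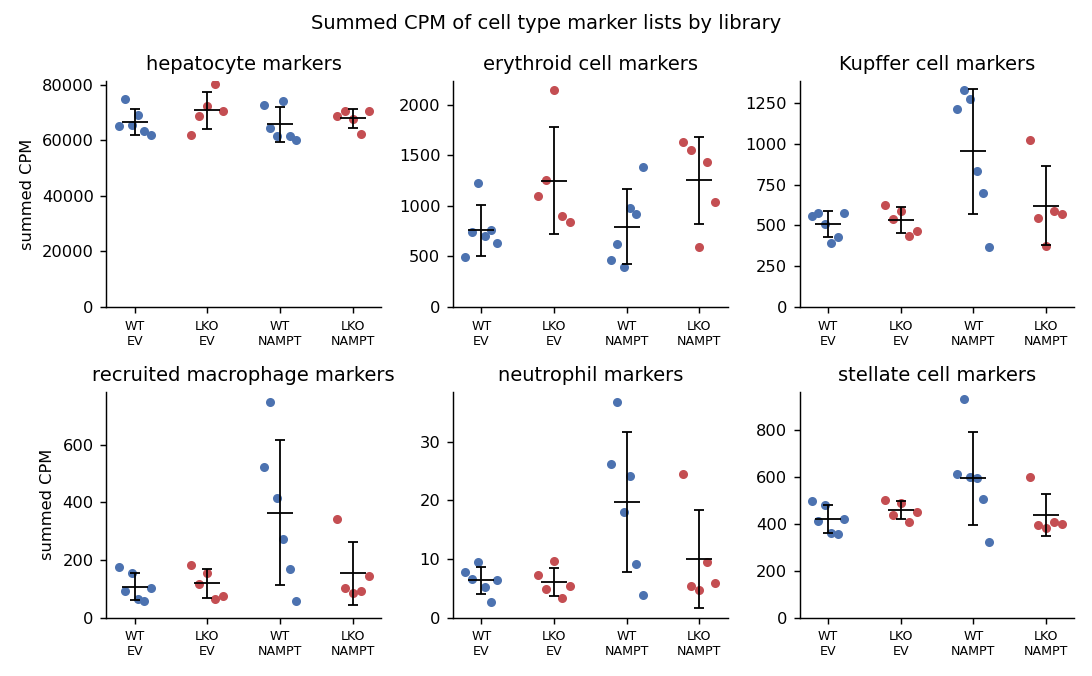
Summed CPM of 6 cell type marker lists in each library, by genotype and vector, with group means and SD. Hepatocyte sums ran from 59885 to 80227 CPM, erythroid sums had a median of 719 CPM in WT and 1176 CPM in LKO-labelled libraries, and the highest macrophage, neutrophil and stellate sums were in WT NAMPT libraries.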

How the data were processed

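Poly-A selected liver RNA was sequenced as single reads. The submitters' processing notes name STAR 2.5.1a and featureCounts 1.4.6-p5 on GRCm38, and whether counting used the strand is not stated. The study's methods limit counting to reads aligned uniquely and without ambiguity. Each deposited table gives unnormalized gene counts beside CPM and RPKM columns, which the authors derived from those counts. Deposited CPM and RPKM were recomputed from the counts (largest relative deviation 5.9e-14) and only the counts were used. Of 41388 Ensembl identifiers, 40340 matched GENCODE M21 (GRCm38), which gave symbols and coordinates.

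Genes over 1 CPM in at least 2 of the 22 libraries were kept, without 4 ribosomal RNA genes. Counts were scaled by TMM (edgeR 4.0.16) and fitted with voomWithQualityWeights in limma 3.58.1 (R 4.3.3), as in the study's methods, with genotype and vector as terms. Within-vector and interaction contrasts came from a model of 4 group means. Logarithms of CPM for exact tests used a pseudocount of 0.5. The p-values of limma set a difference against the spread between these libraries, which the within-vector and interaction contrasts share over all 4 groups. Intervals cover counting error only. On simulated counts with 200 of 13935 genes changed 2-fold, the averaged comparison recovered 89%, with 10 false calls. The changed genes excluded those of low counts, and the simulation held no vector effect and no libraries of low quality. The 89% applies to those settings and does not give the recovery in these data. The replicate numbers did not pair the libraries.

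Named genes were the study's panel, the called genes and next 13 by p, up to 6 called or the 2 smallest p per list, and up to 5 called per within-vector or interaction contrast. Genes outside that rule (Mmp7, Slc22a26 and Gh as called genes of low counts, and list members given as examples) were chosen after their values were seen. The comparison, members and lists were chosen with earlier results of these data known. Alternatives were edgeR quasi-likelihood, DESeq2 1.42.0, no quality weights, other scalings and filters, other designs, sva 3.50.0 surrogate variables and leaving out each library.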

Additional observations from a re-analysis of the deposited data

Results flagged for a closer look

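Among 63 named genes in 4 groups of libraries (252 groups of values), 18 values, from 10 libraries, stood apart from the rest of their group by Dixon's criterion on the log2 scale, which chance gives in about 1 of 20 groups. Of these, 6 were from WT EV replicate 8, which was low in its group for Fasn (1024 CPM), Gpam (194 CPM), Fads1 (383 CPM), Ugt1a5 (10.7 CPM), G0s2 (42.7 CPM) and Fdft1 (25.7 CPM). LKO EV replicate 1 was low for Gstt3 (26.8 CPM) and Akr1d1 (88.6 CPM) and high for Gh (1.49 CPM). LKO EV replicate 3 was low for Gstp2, at 6.83 CPM. WT NAMPT replicate 5 was high for Mmp7, at 0.448 CPM, and WT NAMPT replicate 1 was high for Gh, at 0.0765 CPM, and low for Mettl1, at 7.31 CPM. WT NAMPT replicate 2 was low for Ugt1a5, at 5.76 CPM, and WT NAMPT replicate 6 was high for Serpine2, at 29.9 CPM. WT EV replicate 6 was low for Tnf, at 0.0917 CPM, LKO NAMPT replicate 3 was low for Rela, at 45 CPM, and LKO NAMPT replicate 1 for Cyp4a10, at 308 CPM.

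Adamtsl2 differed between vectors, with an interaction of -1.9 log2 units. The LKO minus WT difference was 0.78 in EV and -1.12 in NAMPT libraries. The call was lost with edgeR, without quality weights and with 2 surrogate variables.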

How the results depend on the processing

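The main numbers of called genes were 10 averaged over vectors, 2 in EV libraries, 1031 in NAMPT libraries and 1 for the interaction. In that order, edgeR's quasi-likelihood test gave 10, 0, 13 and 0 (478 EV genes and 1452 interaction genes at an unadjusted p under 0.05), DESeq2 gave 38, 9, 212 and 9, and limma without quality weights gave 7, 1, 15 and 0. Upper-quartile scaling gave 12, 2, 923 and 5, library size alone 14, 2, 757 and 5, no filter 8, 3, 74 and 5, and a filter on mean CPM 6, 1, 1063 and 1. All 25 libraries gave 34, 1, 1120 and 1, and 2 surrogate variables 48, 10, 6 and 0. The averaged count was 19 from 4 group means and 5 without vector in the model. Of the 10 genes, 7 were among the edgeR and 9 among the DESeq2 calls. In NAMPT libraries 302 genes were higher and 621 lower with upper-quartile scaling, and 205 and 552 with library size alone, which moved the median of all genes by -0.119. Replicate numbers did not pair the libraries (correlations of deviations -0.38 to 0.42), and a replicate block gave 0 (2013 at an unadjusted p under 0.05), 3, 171 and 39 calls. An alternative chosen after seeing the data, leaving out the 4 libraries of low weight, gave 0, 3, 4 and 1, with 8 in place of 14 oxidation genes at an unadjusted p under 0.05 and medians of -0.39 for male-biased and 0.32 for female-biased genes. Leaving out each library in turn gave 3 to 13, 0 to 5, 0 to 2169 and 1 to 606 calls. The directions of 4 uncalled genes reversed. Fgf21 (0.16) was -0.32 with edgeR, -0.31 with DESeq2, -0.011 without weights, -0.44 with the block and -0.10 to 0.39 without 1 library. Fasn (0.06) was -0.23 with the block, -0.15 with surrogate variables, -0.13 without low weights and -0.084 to 0.18 without 1 library. Gpam (-0.04) was 0.052 with edgeR, 0.051 with DESeq2, 0.13 without weights, 0.015 from 4 group means, 0.015 with all 25 libraries and -0.13 to 0.040 without 1 library. Acaca (0.22) was -0.023 with the block. The causes were not tested. Depth limited Mmp7, Gh and Slc22a26, with at most 65 reads in any library.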
